A study of Homo sapiens with 10 samples.

Results

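Microglia identity transcription factors were examined as a group of 9 named genes, SPI1 (which encodes PU.1), IRF8, RUNX1, SALL1, MEF2A, MEF2C, MITF, TFEC and BHLHE41. They were taken by symbol from the human rows of a gene count table that lists 36591 human and 32245 mouse genes. All 9 were found, and all 9 were among the 15455 human genes tested, those that reached 10 counts or more in 6 or more of the 10 libraries. The cells were human microglia derived from the H9 embryonic stem cell line, a single established line, so every library has the same human genome. Progenitors were grafted into the brains of mouse pups at postnatal day 4, after the CSF1R inhibitor BLZ945 had been given to deplete the host's own microglia, and CD11b+ human CD45+ cells were sorted from the brain at 6 months of age. All host mice were C57Bl6J with a Rag2 knock-out, which removes mature T and B cells, and a knock-in of human CSF1, the ligand on which microglia depend. The 5 AppHu hosts, labelled AppKI, carried in addition mouse App edited at the positions that make its amyloid-beta sequence human. The 5 AppSAA hosts carried the same humanised positions together with the Swedish, Arctic and Austrian mutations of familial Alzheimer's disease. The App alleles belong to the host, not to the grafted cells. Each library came from 1 mouse, hosts of both sexes were used in both groups in unequal numbers, and the labels do not give the sex behind a library.

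PU.1 is the ETS factor that opens macrophage enhancers, and it binds many of them together with a partner, among them IRF8 and RUNX1. SALL1 is a zinc finger factor that, among brain macrophages, marks microglia and holds their homeostatic state, and the MADS box factors MEF2A and MEF2C act at the same enhancers. MITF and TFEC belong with TFEB and TFE3 to the MiT/TFE family of basic helix-loop-helix factors, which bind the E-box and drive lysosomal and phagocytic genes, while BHLHE41 is a basic helix-loop-helix repressor known for its place in the circadian clock.

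Values are CPM, counts brought to the same human total in every library after TMM normalisation, a scale on which a gene can be compared between libraries but not with a gene of another length. Differences are log2 fold changes of AppSAA over AppHu. They were tested with the quasi-likelihood test of edgeR, and p-values were adjusted by Benjamini-Hochberg over all 15455 genes and read at a threshold of 0.05. DESeq2 was run beside it, and single genes were also compared with a two-sided exact permutation test on log2 CPM over every choice of 5 of the 10 libraries, which cannot give a p below 0.00794 and is not adjusted for the number of genes.

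The libraries held 25040739 to 39641854 counts, of which 2.12% to 4.97% were on mouse genes. Human counts were somewhat lower in AppSAA (median 28510903, range 24165871 to 30556909) than in AppHu (median 32956814, range 28386080 to 38325734). The labelled cell type was borne out by its markers, with P2RY12, the purinergic receptor of homeostatic microglia, at 11871 to 16313 CPM and the second most abundant human gene tested, CSF1R at 8301 to 10630 CPM and PTPRC, which encodes CD45, at 1241 to 1409 CPM. No library had a count on mouse Rag2. Mouse App had 2193 to 4155 counts in AppHu and 557 to 1560 in AppSAA, a count that does not tell the alleles apart. AppSAA replicate 5 stood apart from the rest. Of the 10111 genes with a mean of at least 5 CPM, 523 were more than 2-fold below the median of the other 9 libraries in it and 11 were more than 2-fold above. AppHu replicate 6 had 194 such lower genes, and each of the other libraries 2 to 28. The 2 sets shared 143 genes, which was 27.3% of the first set and 73.7% of the second. The lower genes had a median GC content of 55.0% in AppSAA replicate 5 and 54.6% in AppHu replicate 6, against 46.3% for all of these genes. Results that rest on AppSAA replicate 5 are given with and without it.

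Taken over the 9 factors, none passed the threshold in edgeR, where 12 of 15455 genes did (0.0776%), and BHLHE41 alone passed in DESeq2, where 215 of 14251 genes with an adjusted p did (1.51%). Leaving out AppSAA replicate 5 gave 0 factors in edgeR, where 33 of all genes passed, and 1 in DESeq2, where 327 did. The log2 fold change was above 0 for 6 and below 0 for 3 of the factors, with a median of 0.05, beside a median of 0.0018 over all genes tested. An unadjusted edgeR p under 0.05 was reached by RUNX1 and BHLHE41, and by 9.80% of all genes tested. In bulk RNA a change in the level per cell cannot be told apart from a change in the mix of cells.

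**Figure D1:**
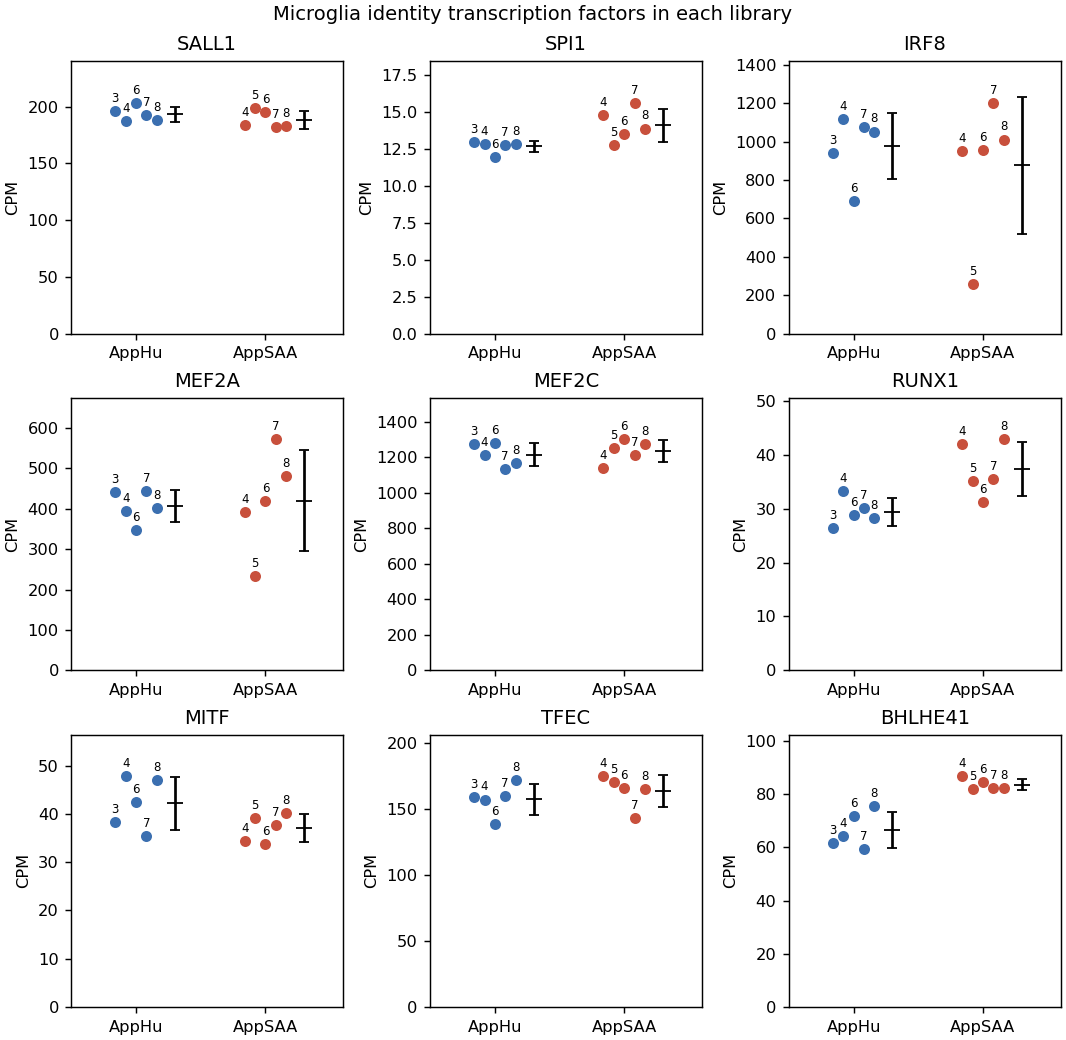
Level of each factor in CPM (linear axis from 0) in the 5 AppHu (blue) and 5 AppSAA (red) libraries, each point labelled with its replicate number, with the mean and SD of the group in black beside the points. BHLHE41 is the factor whose groups do not overlap, from 59.4 to 75.6 CPM in AppHu and from 82.1 to 86.8 in AppSAA, and AppSAA replicate 5 lies at 260 CPM for IRF8 and 234 for MEF2A.

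BHLHE41 encodes a repressor that binds E-boxes as a dimer. The gene lies on the reverse strand of chromosome 12 (chr12:26120030-26125037 on GRCh38 in GENCODE 44). RefSeq's window of 250 bases before its start (chr12:26125038-26125287, reverse strand, GRCh38.p14) is shown because it is the one window of these factors with the palindromic E-box CACGTG, in capitals, the site bound by the BHLHE and MiT/TFE families.
BHLHE41: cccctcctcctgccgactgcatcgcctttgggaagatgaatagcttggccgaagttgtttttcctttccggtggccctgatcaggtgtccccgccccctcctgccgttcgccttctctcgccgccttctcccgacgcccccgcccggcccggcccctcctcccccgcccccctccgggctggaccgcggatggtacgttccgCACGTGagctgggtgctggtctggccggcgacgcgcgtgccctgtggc
The E-box was found in 2228 of 35116 such windows of all genes (6.35%), and in 1 of the 19 windows of the factors. In AppHu replicates 3, 4, 6, 7 and 8 BHLHE41 was at 61.5, 64.4, 71.7, 59.4 and 75.6 CPM. In AppSAA replicates 4, 5, 6, 7 and 8 it was at 86.8, 82.1, 84.5, 82.4 and 82.3 CPM. Every AppSAA library was thus above every AppHu library, and the AppSAA libraries lay close together while the AppHu libraries were spread. The same full separation upward was seen for 244 of 15455 genes (1.58%). The means were 66.5 ± 6.89 CPM in AppHu and 83.7 ± 2.03 CPM in AppSAA (SD, n = 5 each), a 1.26-fold difference (95% interval 1.13 to 1.40). The log2 fold change was 0.33 (SE 0.0728), with adjusted p = 0.105 in edgeR and 0.00969 in DESeq2, and the exact permutation test gave p = 0.00794, the smallest it can give. Without AppSAA replicate 5 the log2 fold change was 0.33 with adjusted p = 0.115 in edgeR and 0.0108 in DESeq2. The call therefore depended on the tool. With the human total of each library or its mouse share as a covariate the value was 0.32 or 0.41, with adjusted p = 0.323 and 0.179 in edgeR. Exons of BHLHE41 share 162 bases with those of SSPN on the other strand, a gene with 620 to 1003 counts per library, and with no strand setting given reads there cannot be told apart.

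RUNX1 is the Runt domain factor of blood and macrophage progenitors. It lies on the reverse strand of chromosome 21 (chr21:34787801-36004667). Its RefSeq window (chr21:34888700-34888949, reverse strand, GRCh38.p14) is shown beside that of BHLHE41 because these are the factors with the largest differences. The window lies inside the annotated gene, before one of its internal starts. It holds none of the 5 motifs searched, which were the E-box, the MEF2 core TAAAAATA, the PU-box GAGGAAG, the RUNX site TGTGGT and the IRF half-sites GAAANNGAA, each on both strands.
RUNX1: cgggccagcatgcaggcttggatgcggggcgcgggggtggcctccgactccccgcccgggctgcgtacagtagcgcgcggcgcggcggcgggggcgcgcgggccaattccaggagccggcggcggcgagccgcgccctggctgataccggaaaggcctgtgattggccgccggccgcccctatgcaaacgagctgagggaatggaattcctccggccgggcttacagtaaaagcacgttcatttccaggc
In AppHu replicates 3, 4, 6, 7 and 8 RUNX1 was at 26.4, 33.2, 28.9, 30.2 and 28.2 CPM. In AppSAA replicates 4, 5, 6, 7 and 8 it was at 42.1, 35.2, 31.3, 35.5 and 42.9 CPM. Replicates 4 and 8 of AppSAA were the highest, and AppSAA replicate 6 fell below AppHu replicate 4, so the groups overlapped. The means were 29.4 ± 2.55 and 37.4 ± 4.97 CPM (SD, n = 5 each). This is a log2 fold change of 0.35 (SE 0.100, 95% interval 0.13 to 0.56), a fold of 1.27, with adjusted p = 0.232 in edgeR and 0.0852 in DESeq2, neither past the threshold, and an unadjusted exact permutation p = 0.0159. AppSAA replicate 4 was also the library with 456 counts on S100A8 and 173 on S100A9, genes of monocytes and neutrophils that had 5 to 40 and 5 to 16 counts in the other 9 libraries. Without that library the log2 fold change of RUNX1 was 0.30 with adjusted p = 0.392 in edgeR. Without AppSAA replicate 8, where RUNX1 was highest, it was 0.29 with adjusted p = 0.457 in edgeR. Whether the cells behind the S100A8 and S100A9 counts had a part in the RUNX1 values was not tested.

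SPI1, on chromosome 11 (chr11:47354860-47378547, reverse strand), was a gene of modest level. AppHu replicates 3, 4, 6, 7 and 8 held 12.96, 12.8, 11.99, 12.8 and 12.9 CPM. AppSAA replicates 4, 5, 6, 7 and 8 held 14.8, 12.8, 13.5, 15.7 and 13.9 CPM. All AppSAA libraries except replicate 5 were above all AppHu libraries. On the log2 scale AppSAA differed by 0.16 (SE 0.0897, 95% interval -0.04 to 0.35) with adjusted p = 0.632 in edgeR and 0.602 in DESeq2, and the exact permutation test gave p = 0.0317. The difference was small, with means of 12.7 ± 0.393 and 14.1 ± 1.11 CPM (SD, n = 5 each). Without AppSAA replicate 5, the library that overlapped AppHu, the log2 fold change was 0.19 with adjusted p = 0.483 in edgeR. The exact permutation p was then 0.00794, the smallest that its 126 arrangements can give, and it is not adjusted. With the overlapping library gone the groups separate fully, so this p was fixed by the omission and cannot support a difference. The share of all genes that separated fully without that library was not counted. Its counts were the fewest of the 9, at 322 to 494 per library.

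IRF8, the interferon regulatory factor that pairs with PU.1 in macrophages and microglia, lies on chromosome 16 (chr16:85899116-85922606, forward strand). AppHu replicates 3, 4, 6, 7 and 8 were at 940, 1118, 691, 1074 and 1052 CPM. AppSAA replicates 4, 5, 6, 7 and 8 were at 949, 260, 954, 1203 and 1011 CPM. The low values of both groups were in the pair of libraries described above as standing apart, and AppSAA replicate 5 was at 0.257 of the median of the other 9. With all libraries the log2 fold change was -0.16 (SE 0.298, 95% interval -0.80 to 0.49) with adjusted p = 0.920 in edgeR. Without AppSAA replicate 5 it turned to 0.07 (SE 0.124, adjusted p = 0.883 in edgeR), with AppSAA at 1029 ± 119 CPM (SD, n = 4). These data set no direction for IRF8. The GC content of its exons was 49.0%, below the 55.0% median of the genes that were low in AppSAA replicate 5, and whether GC content had a part in its low value was not tested.

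**Figure D2:**
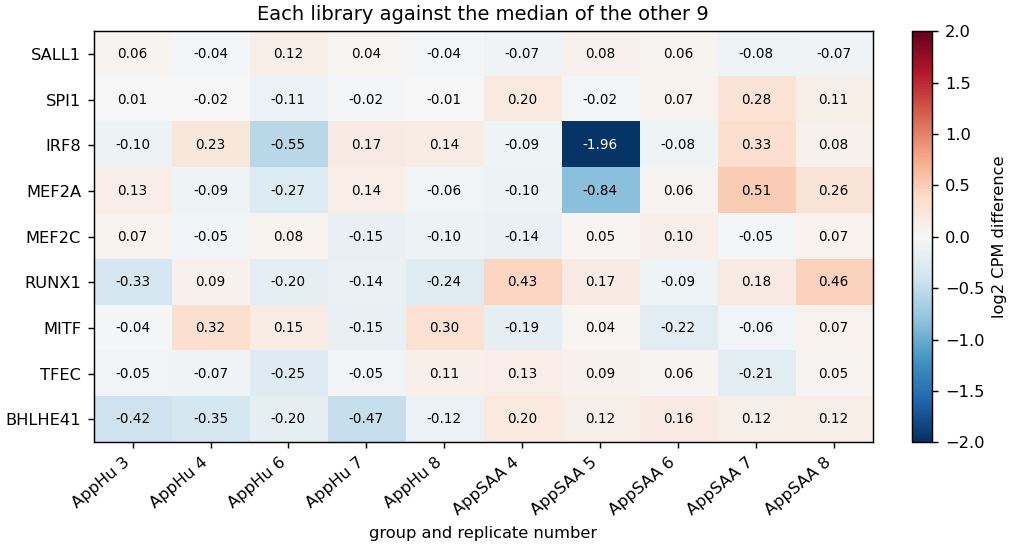
Difference in log2 CPM between each library and the median of the other 9, for each factor (rows) and library (columns), with blue lower and red higher. The 2 largest differences are in AppSAA replicate 5, at -1.96 for IRF8 and -0.84 for MEF2A, where the other 7 factors lay between -0.02 and 0.17.

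SALL1, the most restricted of the microglial factors, lies on chromosome 16 (chr16:51135982-51152334, reverse strand). It lay in a narrow range, at 196, 188, 204, 193 and 188 CPM in AppHu replicates 3, 4, 6, 7 and 8. The AppSAA values were 184, 199, 196, 182 and 183 CPM in replicates 4, 5, 6, 7 and 8. The groups overlapped over most of their range. SALL1 had a log2 fold change of -0.04 (SE 0.0521) with adjusted p = 0.887 in edgeR, and its 95% interval of -0.15 to 0.08 holds folds from 0.902 to 1.05.

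MEF2C, on chromosome 5 (chr5:88717117-88904257, reverse strand), has 7 RefSeq windows, the most of any of the 9. Those shown here lie outside the exons of the gene and hold a motif of the families described here, and were chosen for that reason, with the PU-box in capitals in the first (chr5:88827193-88827442) and the MEF2 core, read on the other strand, in capitals in the second (chr5:88824345-88824594), both on the reverse strand of GRCh38.p14 and before internal starts of the gene.
MEF2C window with a PU-box: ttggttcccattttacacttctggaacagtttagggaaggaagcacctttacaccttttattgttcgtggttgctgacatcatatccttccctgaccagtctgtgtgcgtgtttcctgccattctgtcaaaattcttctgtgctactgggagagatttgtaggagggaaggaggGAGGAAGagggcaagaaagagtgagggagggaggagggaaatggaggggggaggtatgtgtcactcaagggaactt
MEF2C window with a MEF2 core: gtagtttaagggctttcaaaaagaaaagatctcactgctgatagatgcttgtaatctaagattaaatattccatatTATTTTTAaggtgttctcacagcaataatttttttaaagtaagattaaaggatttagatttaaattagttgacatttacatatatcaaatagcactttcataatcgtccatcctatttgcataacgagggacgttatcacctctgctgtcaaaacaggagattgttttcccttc
MEF2 cores were present in 3 of the 19 windows of the factors, 1 of MEF2A and the others of MEF2C, beside 2.09% of all windows, and PU-boxes in 4 of the 19, again of MEF2A and MEF2C, beside 11.2% of all windows. Windows of 1 gene share a locus and are not independent, and SALL1 and SPI1 had no window in the table. A match to these letters is a description of the window. MEF2C was at 1276, 1212, 1280, 1132 and 1169 CPM in AppHu replicates 3, 4, 6, 7 and 8. It was at 1141, 1253, 1300, 1215 and 1273 CPM in AppSAA replicates 4, 5, 6, 7 and 8. The groups covered the same range, and the log2 fold change was 0.03 (SE 0.0543, 95% interval -0.09 to 0.14, adjusted p = 0.930 in edgeR).

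MEF2A lies on chromosome 15 (chr15:99565417-99716488, forward strand). AppHu replicates 3, 4, 6, 7 and 8 were at 442, 394, 347, 444 and 403 CPM. AppSAA replicates 4, 5, 6, 7 and 8 were at 392, 234, 420, 572 and 482 CPM. As for IRF8, the lowest library of each group was AppHu replicate 6 and AppSAA replicate 5. For MEF2A the log2 fold change was 0.05 (SE 0.178, 95% interval -0.34 to 0.44, adjusted p = 0.966 in edgeR). It was 0.20 without AppSAA replicate 5 (SE 0.106, adjusted p = 0.519 in edgeR) and -0.09 without AppSAA replicate 7. MEF2A shares 792 exonic bases with LYSMD4 and MEF2C shares 469 and 208 with MEF2C-AS1 and MEF2C-AS2, all on the other strand, and these neighbours had at most 568 counts in a library against at least 6169 for MEF2A and 31002 for MEF2C.

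MITF, which in other lineages directs melanocytes, mast cells and osteoclasts, lies on chromosome 3 (chr3:69739456-69968336, forward strand). In AppHu replicates 3, 4, 6, 7 and 8 it was at 38.3, 47.8, 42.4, 35.3 and 47.1 CPM. In AppSAA replicates 4, 5, 6, 7 and 8 it was at 34.3, 39.2, 33.7, 37.7 and 40.3 CPM. The groups overlapped, with the 3 highest libraries all AppHu. MITF had a log2 fold change of -0.19 (SE 0.0961, 95% interval -0.40 to 0.02) with adjusted p = 0.573 in edgeR and 0.545 in DESeq2 and an exact permutation p = 0.111. With the library total or the mouse share as a covariate it was -0.09 or -0.10, with adjusted p = 0.910 and 0.896 in edgeR.

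TFEC, the MiT/TFE member largely restricted to macrophages, lies on chromosome 7 (chr7:115935148-116159896, reverse strand). It was at 159, 157, 139, 160 and 172 CPM in AppHu replicates 3, 4, 6, 7 and 8. In AppSAA replicates 4, 5, 6, 7 and 8 it was at 175, 170, 166, 143 and 165 CPM. The ranges overlapped almost fully, and the log2 fold change was 0.06 (SE 0.0718, 95% interval -0.10 to 0.21, adjusted p = 0.864 in edgeR).

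**Figure D3:**
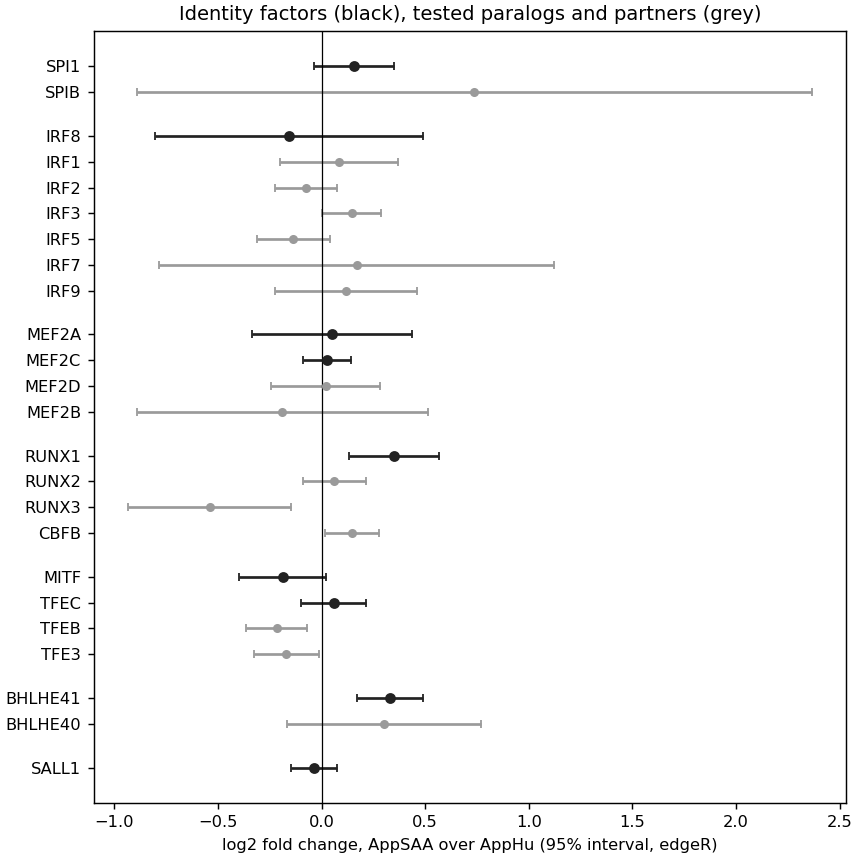
Log2 fold change of AppSAA over AppHu from edgeR (horizontal axis) with its 95% interval for the 9 factors (black) and their tested paralogs and partners (grey), grouped by family. Among the factors, the intervals of BHLHE41 (0.17 to 0.49) and RUNX1 (0.13 to 0.56) lie above 0, and the widest interval is that of IRF8 (-0.80 to 0.49).

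Set on a scale per kb of annotated exons, on which genes can be compared, the factors spanned a wide range of levels. The AppHu means were 124 ± 21.9 CPM per kb for IRF8, 103 ± 5.56 for MEF2C, 57.0 ± 5.58 for MEF2A, 30.7 ± 1.05 for SALL1, 18.2 ± 1.38 for TFEC, 17.3 ± 1.79 for BHLHE41, 6.22 ± 0.193 for SPI1, 5.69 ± 0.734 for MITF and 1.89 ± 0.164 for RUNX1 (SD, n = 5). The gene for PU.1 was therefore near the bottom of the order and its partner IRF8 at the top. The GC content of the exons of SPI1 was 62.0%, the highest of the 9, and whether GC content had a part in this order was not tested. Among neighbours in this order, IRF8 and MEF2C, TFEC and BHLHE41, and SPI1 and MITF overlapped between their libraries in AppHu, and in all 10 libraries every other neighbouring pair kept its order. BHLHE41 stood at 21.7 ± 0.527 CPM per kb in AppSAA, where its libraries were all above those of TFEC (18.9 ± 1.42), but with the longest transcript as the length TFEC had the higher mean there (24.6 ± 1.85 against 22.3 ± 0.543 CPM per kb), so the order of these neighbours in AppSAA turned with the length used. The median over 12860 genes with an annotated length was 4.08 CPM per kb, and 8 of the 9 factors were above it, RUNX1 being the exception. The order in AppHu was the same with the longest transcript as the length, and with it also RUNX1 alone was below the median. RUNX1 has 15574 bases of exon union, the most of the 9, against 7274 in its longest transcript, so its value per kb depends on which transcripts the cells use.

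**Figure D4:**
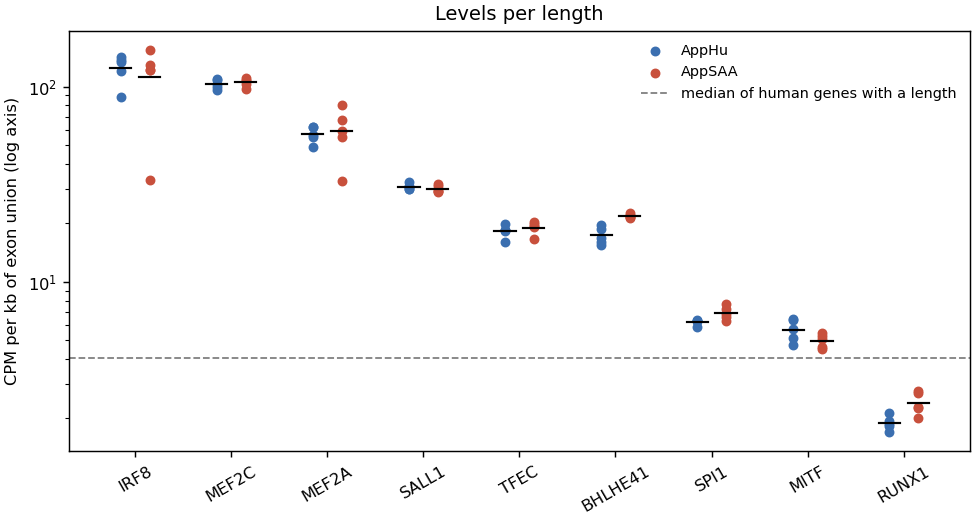
Level per kb of exon union (CPM per kb, log axis) of each factor in each AppHu (blue) and AppSAA (red) library, with the group mean as a black bar and the median of 12860 human genes as a dashed line. IRF8 and MEF2C are at the top near 100 and RUNX1, at 1.89 in AppHu and 2.40 in AppSAA, is the factor below the line.

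The factors differed in their spread between the libraries of a group. The pooled SD of log2 CPM within groups was 0.05 for SALL1, smaller than for all but 0.920% of the 10111 genes with at least 5 CPM, 0.08 for MEF2C (5.29% of genes smaller) and 0.09 for SPI1 (9.50%). It was 0.11 for BHLHE41 and for TFEC and 0.16 for MITF and for RUNX1, at a background median of 0.16. It was 0.36 for MEF2A (89.3% smaller) and 0.66 for IRF8 (97.6% smaller), the 2 factors that were low in AppSAA replicate 5. Without that library the SD fell to 0.19 for MEF2A and 0.24 for IRF8. The background genes were not matched to the factors by level.

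Partner and paralog pairs were compared across the 10 mice. Of the 5 pairs chosen for this purpose, none had an adjusted permutation p under 0.05 (100000 resamples, two-sided, Benjamini-Hochberg over the 5). SPI1 and RUNX1 had Pearson's r = 0.64 (permutation p = 0.0590, adjusted 0.295) and Spearman's rho = 0.55 (permutation p = 0.105, adjusted 0.481), with r = 0.60 without the 2 libraries farthest from the median of SPI1 and r = 0.21 for deviations from the group means. SPI1 and IRF8 had r = 0.36 (permutation p = 0.192, adjusted 0.321) and rho = 0.32 (permutation p = 0.365, adjusted 0.536), with r = 0.26 without the 2 libraries farthest from the median, r = 0.54 without AppSAA replicate 5 and r = 0.77 for deviations from the group means. SALL1 and MEF2C had r = 0.47 (permutation p = 0.163, adjusted 0.321) and rho = 0.45 (permutation p = 0.193, adjusted 0.481), with r = 0.31 without 2 libraries. MEF2A and MEF2C had r = -0.13 (permutation p and adjusted p = 0.774) and rho = -0.05 (permutation p and adjusted p = 0.887), and the sign turned without the 2 farthest libraries (r = 0.04) and without AppSAA replicate 5 (r = 0.0036). MITF and TFEC had r = -0.16 (permutation p = 0.647, adjusted 0.774) and rho = -0.28 (permutation p = 0.429, adjusted 0.536), with r = -0.54 without 2 libraries. The paralogs of the MEF2 and MiT/TFE families thus showed no common course over these mice that passed the test.

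For each factor the human genes with the most similar course over the 10 libraries were sought among 10111 genes, and with so many genes and 10 points a high r is found for any gene, so these are given as descriptions with no p. BHLHE41 was followed most closely by TSPAN7, a tetraspanin (r = 0.96), and CBWD6 (r = 0.95). RUNX1 was followed by AL133243.2 (r = 0.94) and the splicing factor RBM25 (r = 0.91), and SPI1 by the protein kinase C gene PRKCH (r = 0.94) and NSMAF (r = 0.94). IRF8 was followed by TCIRG1, a subunit of the vacuolar proton pump (r = 0.996, and 0.963 without AppSAA replicate 5), and IMP3 (r = 0.99, and 0.94 without it). MEF2A was followed by C12orf75 (r = 0.97) and SH3TC1 (r = 0.97), and MEF2C by DENND10 (r = 0.97) and PILRA (r = 0.94). SALL1 was followed by ZBTB21 (r = 0.92) and DOLK (r = 0.91), TFEC by TRAF2 (r = 0.95) and LARP4 (r = 0.92), and MITF by NAIF1 (r = 0.88) and GDA (r = 0.86). None of the 9 factors was itself among these genes.

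Paralogs and partners of the factors gave no call. Of 20 such genes 15 were tested, 9 above and 6 below 0, with none past the threshold in either tool and a median log2 fold change of 0.06. TFEB, the MiT/TFE factor best known for lysosomal genes, had the smallest p, at 50.1 ± 3.46 CPM in AppHu and 43.1 ± 1.59 in AppSAA (log2 fold change -0.22, SE 0.0675, adjusted p = 0.274 in edgeR). RUNX3 was at 15.4 ± 4.10 and 10.6 ± 1.46 CPM (-0.54, SE 0.182, adjusted p = 0.316 in edgeR) and CBFB, the common partner of the RUNX proteins, at 80.2 ± 1.91 and 88.9 ± 5.94 CPM (0.15, SE 0.0601, adjusted p = 0.435 in edgeR). RUNX3 and RUNX1 thus had values of opposite sign. BHLHE40, the paralog of BHLHE41, named after its values were seen, was at 10.2 ± 2.97 and 12.6 ± 2.97 CPM (0.30, SE 0.216, adjusted p = 0.727 in edgeR). The untested 5 were SALL2, SALL3, SALL4, SPIC and IRF4, with 0 to 18 counts per library.

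Of 31 other macrophage lineage factors, 29 were tested, 17 above and 12 below 0, with a median of 0.05. None passed in edgeR and KLF6, an injury-responsive zinc finger factor, passed in DESeq2, at 244 ± 33.3 CPM in AppHu and 338 ± 42.7 in AppSAA (log2 fold change 0.47, SE 0.104, adjusted p = 0.108 in edgeR and 0.00969 in DESeq2). SMAD3, which carries TGF-beta signals, was at 47.1 ± 3.96 and 56.6 ± 2.80 CPM (0.26, SE 0.0733, adjusted p = 0.220 in edgeR), and the repressor BCL6 at 5.39 ± 1.21 and 8.76 ± 2.23 CPM (0.70, SE 0.198, adjusted p = 0.230 in edgeR and 0.0506 in DESeq2). Without AppSAA replicate 5, SMAD3, KLF6, BCL6 and FLI1 passed in DESeq2, where 327 of all genes did. The first 3 were higher in AppSAA and FLI1 lower, and none of the list passed in edgeR. GATA2 and MYB, factors of progenitors, had at most 1 and 23 counts in a library and were not tested.

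Genes that the factors are known to serve were read the same way. Over all 15455 genes tested, 7801 were above and 7654 below 0. Of 21 homeostatic microglia genes 4 were above and 17 below 0, with a median of -0.07, and none passed in either tool. The smallest p in that list were those of C1QA, a subunit of complement C1q (log2 fold change -0.17, SE 0.0580, adjusted p = 0.329 in edgeR), TGFBR1 (0.20, SE 0.0682, adjusted p = 0.329) and the transporter SLCO2B1 (-0.14, SE 0.0579, adjusted p = 0.442). Of 21 genes known to be bound or driven by PU.1, 3 were above and 18 below 0, with a median of -0.09. None passed in edgeR, and in DESeq2 the Fc receptor FCGR1A passed higher (0.29, SE 0.0579, adjusted p = 0.0777 in edgeR and 0.00107 in DESeq2) and MS4A6A, a membrane protein of myeloid cells, passed lower (-0.57, SE 0.107, adjusted p = 0.0716 in edgeR and 0.000625 in DESeq2). Without AppSAA replicate 5 MS4A6A passed in edgeR as well, where 33 of all genes did. CSF1R, TYROBP and AIF1 are in both lists. Of 30 lysosome and autophagy genes of the MiT/TFE network 28 were tested, 12 above and 16 below 0, with a median of -0.03 and none past the threshold in either tool. The smallest p there were those of CTSF (-0.56, SE 0.281, adjusted p = 0.555 in edgeR), ACP5 (-0.55, SE 0.312, adjusted p = 0.628) and GLA (0.11, SE 0.0700, adjusted p = 0.675).

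Markers of other macrophages were read beside these lists. Of 9 markers of border-associated macrophages, which are sorted by the same gate, 8 were below 0 with a median log2 fold change of -0.48, none passed in edgeR, and the mannose receptor MRC1 passed lower in DESeq2 (-0.43, SE 0.112, adjusted p = 0.185 in edgeR and 0.0364 in DESeq2). Their summed level was 4516 to 5131 CPM in AppHu and 3818 to 4767 in AppSAA, and none of the 9 was at 0. Without AppSAA replicate 5, when 327 of all genes passed in DESeq2, MRC1 and LYVE1 passed lower there. Their part in the values of BHLHE41, RUNX1 and the genes listed above was not tested.

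Cells in which single factors have other duties were near absent. The monocyte markers S100A12 and FCN1 had no count in any library. Of 9 dendritic cell markers, which share IRF8, 4 were tested and none passed, with a sum of 186 to 263 CPM in AppHu and 192 to 245 in AppSAA that was mostly IL3RA, while XCR1, FLT3 and CLEC4C had at most 6 counts in a library. Of the mast cell and melanocyte markers, which share MITF, KIT, CPA3, TPSAB1, TYR and TYRP1 had no count. The mast cell and basophil sum of 20.2 to 78.5 CPM was nearly all FCER1A (40.5 ± 14.3 CPM in AppHu and 57.5 ± 25.4 in AppSAA, adjusted p = 0.695 in edgeR), and the melanocyte sum was at most 6.37 CPM. The summed level was at most 4.50 CPM for megakaryocyte markers, which share RUNX1, with PF4 and PPBP at 0, at most 8.26 for lymphocyte markers and at most 0.591 for pluripotent stem cell markers, with SOX2 at 0. The 6 cycling cell markers were all tested and none passed, with sums of 80.9 to 147 CPM in AppHu and 90.3 to 155 in AppSAA.

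The mouse genes of the 9 factors were counted in the same libraries, as a measure of host RNA in the sort and of reads that the genomes could share. Mouse Spi1 had the largest share of the pair, with 14 to 103 counts per library and 3.99% to 17.3% of mouse and human counts together, the human gene itself being at few counts. For the other 8 genes the mouse share was at most 5.08% in any library. Mouse Irf8 had 95 to 240 counts, and its share was 3.21% in AppSAA replicate 5, where human IRF8 was low, and at most 0.807% elsewhere, so that the mouse gene was not low in that library. Mouse Tfec had 0 counts in 9 libraries and 9 counts in AppHu replicate 6, and mouse Bhlhe41 had 38 to 114 counts in AppHu (median 68) and 22 to 73 in AppSAA (median 48). Scaled to the mouse total the order of its medians turned, to 43.4 in AppHu and 60.0 in AppSAA as CPM of mouse counts.

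**Figure D5:**
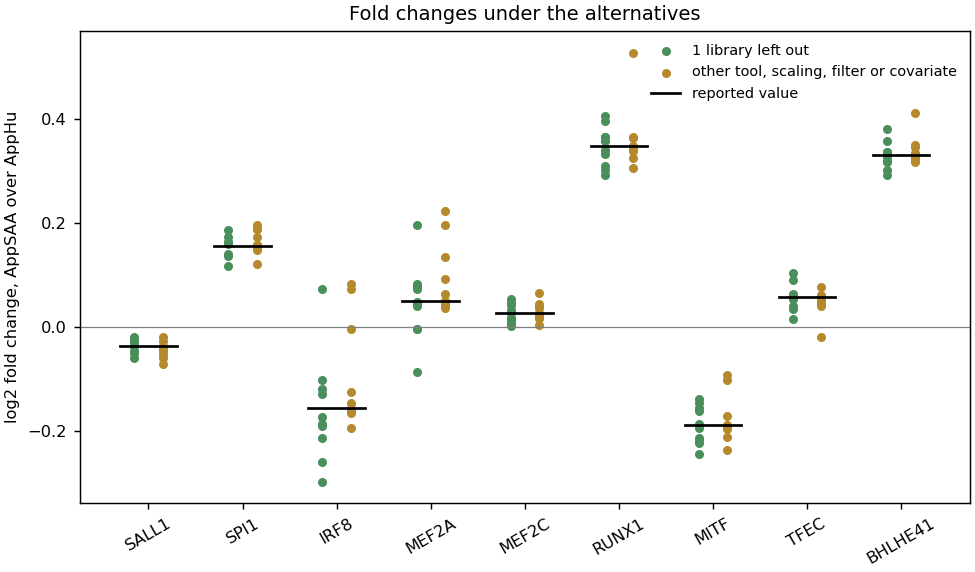
Log2 fold change of each factor as reported (black bar), with 1 library left out (green) and under another tool, scaling, filter, covariate or block (ochre). BHLHE41 and RUNX1 stay above 0.29 under all 21 alternatives. IRF8 and MEF2A have values on both sides of 0, as does TFEC, at -0.0199 with the library total as a covariate.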

How the data were processed

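RNA of human microglia sorted from 10 xenografted mouse brains was amplified with the SMART-Seq HT PLUS kit and sequenced as single reads. The deposited table holds raw counts, as whole numbers, which the authors made by aligning reads with STAR 2.7.11a to a combined mm10 and GRCh38 genome and counting with featureCounts 2.0.1, without normalisation. The annotation release and strand setting are not given in the sources used here, so positions and lengths from GENCODE 44, matched by symbol, may be of another release.

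Human genes that reached 10 counts in 6 libraries or more entered edgeR 4.0.16 under R 4.3.3 (TMM, legacy quasi-likelihood fit, Benjamini-Hochberg adjustment, threshold 0.05), with DESeq2 1.42.0 and limma 3.58.1 as alternatives. The SE of an edgeR fold change was derived from its F statistic. CPM use the human total after TMM, with a prior count of 2 on the log2 scale. Permutation tests used Python 3.11.15 and scipy 1.17.1. The fits were tested on simulated data in which 200 of 15455 genes were changed by 1 on the log2 scale. This is more than the difference of any of the factors. DESeq2 recovered 74.75% of the changed genes, and 12.85% of its calls were false. The same shares were 63.25% and 3.4% for edgeR and 64.25% and 4.15% for limma-voom. No 2 libraries of a group agreed within sampling noise.

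The 9 factors and all gene lists were chosen with earlier results of these data known. Genes were named by a rule: the factors, of each list the genes past the threshold in edgeR or DESeq2 and the 3 with the smallest edgeR p, marker genes where their list is described, and the 2 genes most like each factor. Results for some genes of the lists are not reported here. Sequences are from RefSeq on GRCh38.p14, matched by symbol for 7 of 9 factors. Windows 250 bases before each start were searched for motifs. The replicate numbers in the titles were checked for pairing, and same-numbered mice did not deviate together in every pair. Alternatives were other tools, normalisations and filters, covariates, a replicate block and each library left out, and fits without AppSAA replicate 5 in DESeq2 were added after the data had been seen.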

Additional observations from a re-analysis of the deposited data

Results flagged for a closer look

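In each group of 5 libraries the lowest or highest value of a factor was compared with the spread of the other libraries, over 18 groups in all, and chance sets apart about 1 in 20 groups. IRF8 in AppSAA was set apart, with replicate 5 at 260 CPM and the next library at 949 CPM, a gap of 0.845 of the group's whole range on the log2 scale. SPI1 in AppHu was set apart as well, with replicate 6 at 11.99 CPM and the next library at 12.8 CPM, a gap of 0.806 of the range. The range of SPI1 was narrow, and all of its AppHu values lay within 1 CPM of each other.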

How the results depend on the processing

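The count of genes past the threshold was 12 in edgeR and depended on the method, with 215 in DESeq2, 52 in limma-voom with quality weights, 19 without the legacy mode, 32 without a filter, 1 with the library total and 5 with the mouse share as a covariate, 2 to 33 with 1 library left out and 327 in DESeq2 without AppSAA replicate 5. The lowest counts came without AppHu replicate 3 or 7 or AppSAA replicate 8 (2 each), then without AppHu replicate 4 or AppSAA replicate 6 (4 each), and the highest without AppSAA replicate 5. Of the factors, 0 passed under 19 of 21 alternatives and 1, BHLHE41, in DESeq2 with all libraries and without AppSAA replicate 5. The adjusted p of BHLHE41 ranged from 0.00969 to 0.323 over all alternatives (0.103 to 0.265 with 1 library left out), and that of RUNX1 from 0.0637 to 0.543. The log2 fold change of RUNX1 rose to 0.53 with the library total as a covariate. The log2 fold change of IRF8 turned to 0.0737 without AppSAA replicate 5 in edgeR, to 0.0738 in DESeq2 and to 0.0831 with the replicate block, ranging from -0.297 to 0.0737 with 1 library left out. MEF2A ranged from -0.0873 to 0.197 with 1 library left out and reached 0.22 with the replicate block, and was below 0 without AppHu replicate 6, AppSAA replicate 7 or AppSAA replicate 8. TFEC turned to -0.0199 with the library total as a covariate. Number 3 occurs only in AppHu and number 5 only in AppSAA. The replicate block therefore takes its group difference from numbers 4, 6, 7 and 8, and in effect also leaves out AppSAA replicate 5. Beyond that, the cause of these changes was not tested, and each of the values that turned was far from the threshold. Over the 5 gene lists other than markers, 0 genes passed in edgeR, 3 in DESeq2, 1 in edgeR without AppSAA replicate 5 and 6 in DESeq2 without it. The raw median count of the mouse gene was higher in AppHu for 6 of the 9 factors, and for 2 of 9 after scaling to the mouse total. With the replicate number as a block, 59 genes and 0 factors passed. Same-numbered mice correlated by 0.06, 0.03, 0.18 and 0.11 in their deviations for numbers 4, 6, 7 and 8, and those numbered 4, 7 and 8 correlated best with their own number and 6 with another, a hint from the data only. Not every correlation was above 0.1, so the block was not taken as a paired test. At 322 to 494 counts SPI1 is the factor whose values depth limits most.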
